A study of Mus musculus with 6 samples.

Results

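Trem2, Ccl4 and 8 further genes expressed by microglia were followed across cultures of embryonic cortical precursors. The 8 are Tyrobp, Ccl3, Aif1, Csf1r, C1qa, C1qb, C1qc and Cx3cr1. In these cultures the microRNA miR-335 was or was not blocked. Members were found as gene probes to which the platform's annotation gives a single symbol from this set. That found 9 of the 10 genes, each with 1 probe, among 34967 gene probes on the array. Csf1r, the receptor for the growth factors that keep microglia alive, had no probe with a single symbol in the annotation used here and is described apart. Trem2 and Ccl4 were chosen by their lower intensities after the block in these same arrays, and the other members were chosen with their closeness to background known. Differences between the groups are therefore given as descriptions, with no test of any member.

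The cultures were neurospheres, floating clusters of precursor cells, from the dorsal telencephalon of C57BL/6 mouse fetuses at embryonic day 12.5. All were grown without serum in bFGF at 20 ng/ml, EGF at 20 ng/ml and LIF at 0.15 ng/ml. In 3 cultures (anti-miR-335) a 2'-O-methyl oligonucleotide antisense to miR-335 was transfected, and in 3 (control) a nonsense 2'-O-methyl oligonucleotide directed at EGFP. The labels give the time of transfection as 24 without a unit. They call the 3 replicates of a group independent without saying what was repeated. Any p-value weighs the difference between the groups against the spread within them over these 6 samples, whatever the replicates repeat. RNA was read on 6 single-colour arrays, and an intensity of 1 is the median of the array.

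Trem2 is a lipid-sensing receptor on the surface of microglia, and it signals through the adaptor Tyrobp to the kinase Syk. The pair is required for microglia to enter a phagocytic, lipid-handling state. Ccl3 and Ccl4 are chemokines that activated microglia and macrophages secrete to draw in other leukocytes, Cx3cr1 is the microglial receptor for the neuronal chemokine Cx3cl1, Aif1 is the calcium-binding protein Iba1, and C1qa, C1qb and C1qc encode the chains of the molecule that starts the classical complement cascade. Microglia come from the yolk sac and not from the neural precursors of the cortex. The members other than Ccl3 and Ccl4 are used as markers of microglia. Whether these cultures held microglia was not tested.

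The blocked microRNA is shown because every comparison rests on it. Mouse miR-335 is encoded at chr6:30741299-30741396 on the plus strand (GRCm38.p6, RefSeq), and the labels do not state which of its arms the oligonucleotide pairs with. Both arms are given 5′ to 3′ with the seed, bases 2 to 8, in capitals.
mmu-miR-335-5p: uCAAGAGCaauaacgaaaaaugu
mmu-miR-335-3p: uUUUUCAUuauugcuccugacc
The seeds of both arms differ, and sites for them in the members' transcripts were not analysed here. MicroRNA levels were not analysed here either, so the block has no check of its own.

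A probe counted as above background on an array where its intensity passed a limit set 3 scaled median absolute deviations over the middle value of the negative controls. The 6 limits ran from 0.492 to 0.692, and 59.9% to 67.3% of gene probes passed them. The spike-in spots had their lowest median, 3.49, on control replicate 1 and reached 5.19 on another control array. The fit weighs each probe's difference on the log2 scale against the spread within groups, pooled over probes (limma), with Benjamini-Hochberg adjustment over 34847 probes, and 0 probes passed an adjusted p of 0.05 (0.0%). At an unadjusted p under 0.05 there were 3162 probes (9.07%), with 4.17% lower and 4.91% higher after the block. No member therefore passed in this fit, and "lower" and "higher" below describe means only.

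Only Trem2 and Ccl4 were above background on all 6 arrays. Those are 2 of 9 members, against 51.0% of all gene probes. At the other end, Tyrobp, C1qa, C1qb and C1qc were above background on no array, which makes 4 of 9 members against 26.2% of gene probes. Cx3cr1 was above on 5 arrays, and Ccl3 and Aif1 on 1 each. The number of members above background was 2, 3 and 3 on control replicates 1 to 3, and 4, 3 and 4 on the anti-miR-335 replicates. Leaving Trem2 and Ccl4 aside, 7 of 42 spots were above background, 5 in the anti-miR-335 group and 2 in the control group. Of all gene probes, 60.1%, 63.1% and 67.3% passed on the anti-miR-335 replicates and 59.9%, 62.4% and 60.5% on the control replicates. The limits were 0.692, 0.563 and 0.492 on the former and 0.656, 0.630 and 0.645 on the latter. Ccl3 on anti-miR-335 replicate 3, at 0.597, passed its own limit but lay under that of every control array. The spots nearest to the limit were Aif1 on anti-miR-335 replicate 1, at 1.06 times the limit, and Cx3cr1 on control replicate 1, at 0.890 times.

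**Figure D1:**
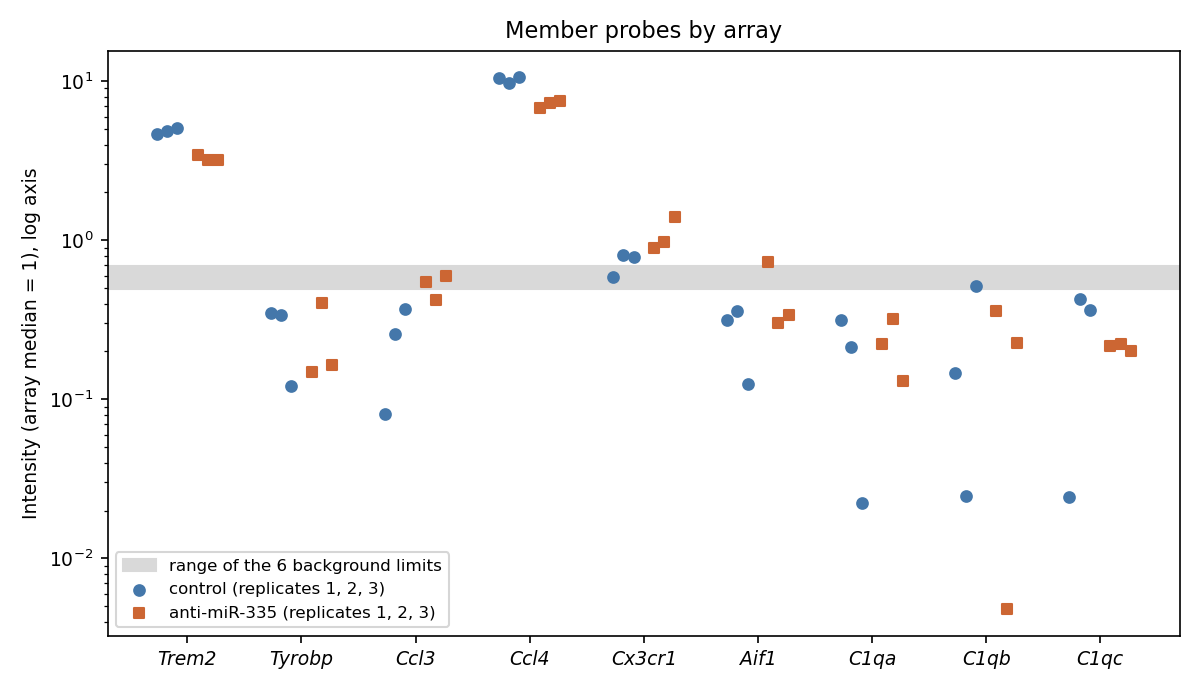
Intensity of each member probe on each array, on a log axis in units of the array median; circles are the 3 control arrays, squares the 3 anti-miR-335 arrays, in replicate order, and the grey band is the range of the 6 background limits (0.492 to 0.692). Trem2 and Ccl4 lie above the band on every array, Cx3cr1 lies at or above it, and the other 6 members lie mostly below it.

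Trem2, the receptor, is encoded at chr17:48346401-48352276 (GRCm38.p6, RefSeq interval of the whole gene). Its intensities in the control arrays were 4.64, 4.85 and 5.08, which is 7.07, 7.70 and 7.87 times the background limit. In the anti-miR-335 arrays they were 3.42, 3.19 and 3.21, or 4.94, 5.66 and 6.53 times the limit. The groups did not overlap: every anti-miR-335 array was below every control array. The means were 4.85 ± 0.221 (SD, n = 3) in control and 3.27 ± 0.126 (SD, n = 3) after the block. On the log2 scale the difference, anti-miR-335 minus control, was -0.57 with a standard error of 0.11, which is 1.48-fold. The 3 anti-miR-335 arrays lay 0.50, 0.60 and 0.60 below the control mean on that scale, each by a similar amount. The gap between the nearest arrays of the 2 groups was 0.44. In bulk RNA, fewer cells that express a gene and less of its RNA per cell cannot be told apart, and this holds for each member. Each member also rests on a single probe, and whether that probe reads only its own gene was not tested.

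The scanner output of the replicate 1 arrays shows what lies under these normalized values. The Trem2 spot had a mean of 341 raw units over a local background of 59 on control replicate 1, a ratio of signal to the software's noise level of 3.43. On anti-miR-335 replicate 1 it had a mean of 287 over 63 and a ratio of 2.63. Trem2 was thus a dim but readable spot on both arrays, within 4 times the noise level.

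The window from 250 bases before to 50 bases after the RefSeq start of Trem2 is shown because the gene lists contain Spi1, which encodes PU.1, the factor that defines the myeloid lineage and binds purine-rich sequence around GAGGAA. The window is chr17:48346151-48346450 on the plus strand (GRCm38.p6, RefSeq), and the capitals mark TTCCTC, which is GAGGAA on the minus strand, 40 to 35 bases before the start.
Trem2 start window: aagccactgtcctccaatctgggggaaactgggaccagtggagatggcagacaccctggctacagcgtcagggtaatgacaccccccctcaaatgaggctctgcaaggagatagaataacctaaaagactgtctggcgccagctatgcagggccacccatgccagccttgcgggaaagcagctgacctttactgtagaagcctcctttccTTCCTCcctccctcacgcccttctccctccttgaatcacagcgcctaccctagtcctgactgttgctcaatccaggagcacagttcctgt
These 6 letters, searched on both strands, were found in 5 of the 6 members with such a window (Trem2, Ccl3, Aif1, C1qb and C1qc, not Cx3cr1) and in 28.3% of 32851 windows of the same length. A match of letters is a description and not a binding site. Ccl4, Tyrobp and C1qa were not searched, and Csf1r, described apart, was left out of this count.

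Spi1 itself was above background on all 6 arrays. Its intensities were 4.57, 4.19 and 4.11 in control and 3.60, 4.08 and 3.78 after the block. The groups did not overlap, though they came close: the difference was -0.17 ± 0.12 (log2, SE).

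Tyrobp, the adaptor that carries the signal of Trem2 and is encoded at chr7:30413782-30417582, was below background on all 6 arrays. It read 0.350, 0.338 and 0.122 in control and 0.150, 0.402 and 0.166 after the block. These values overlap and have no readable order. The receptor's probe was therefore read on every array while its adaptor's probe was above background on none, and no fold is given for Tyrobp.

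The genes around Trem2 and Tyrobp form a list of 24 entries, the Trem receptors, their adaptors, kinases, ligands and processing enzymes. Of these, 22 were measured, 9 were above background on all 6 arrays, 5 on none, and 0 passed the adjusted threshold in either direction. The median difference of the list was 0.15, against 0.01 over all probes tested, with 16 genes above 0 and 6 below. At an unadjusted p under 0.05, 1 gene was lower, against 4.17% of all probes.

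That gene was Syk, the kinase that docks on phosphorylated Tyrobp. It read 0.542, 0.808 and 0.437 in control and 0.206, 0.215 and 0.469 after the block. It was above background on a single control array, so no fold can be given. Plcg2, the phospholipase downstream of Syk, was above background on all 6 arrays, at 2.93 in control and 3.37 after the block (0.21 ± 0.14, log2, SE). Vav1, a guanine nucleotide exchange factor of leukocytes, read 0.122, 0.993 and 0.364 in control and 0.896, 0.876 and 0.824 after the block. The groups overlapped, with the highest value on control replicate 2. Vav1 passed the limit on 1 control array and on all 3 arrays after the block, and met the naming filter only through the latter. Its difference of 1.15 ± 0.53 ran from 0.42 to 1.83 over the alternatives and was 0.52 without control replicate 1. Its second probe was above background on 1 array. Apoe, a lipid carrier that binds Trem2, read 485 ± 37.2 in control and 452 ± 59.4 after the block (SD, n = 3). Its difference of -0.11 ± 0.17 was within its standard error.

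Ccl4, the chemokine MIP-1 beta, is encoded at chr11:83648624-83664683. Its intensities in control were 10.4, 9.76 and 10.6, which is 15.9, 15.5 and 16.4 times the background limit. After the block they were 6.80, 7.31 and 7.48, or 9.82, 13 and 15.2 times the limit. Every anti-miR-335 array was below every control array, as for Trem2. The means were 10.3 ± 0.434 in control and 7.20 ± 0.355 after the block (SD, n = 3). The difference was -0.51 with a standard error of 0.10 on the log2 scale, 1.43-fold, and the nearest arrays of the groups were 0.38 apart. On control replicate 1 the spot had a mean of 689 raw units over a local background of 54, and a signal-to-noise ratio of 7.42. On anti-miR-335 replicate 1 it was 512 over 68, with a ratio of 4.53.

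**Figure D2:**
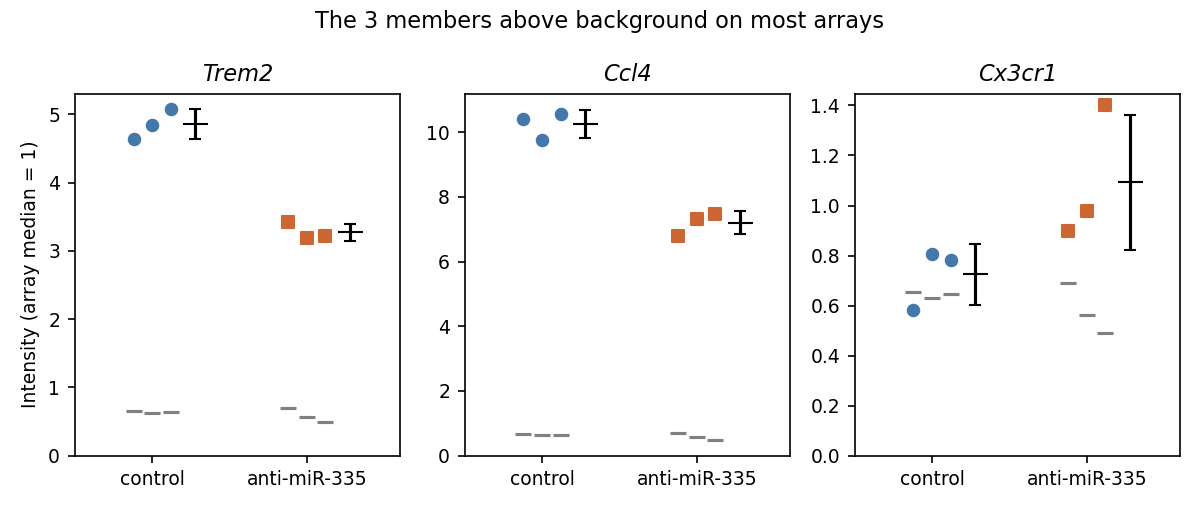
Intensity of Trem2, Ccl4 and Cx3cr1 on each array, in units of the array median, from 0 upward; circles are control, squares anti-miR-335, the crosses with bars are mean ± SD (n = 3), and the short grey lines are each array's background limit. Trem2 and Ccl4 are lower on all 3 anti-miR-335 arrays, while Cx3cr1 is higher on them and close to the limit.

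Ccl3, the chemokine MIP-1 alpha, lies next to Ccl4 at chr11:83647843-83649378, and the RefSeq intervals of the 2 genes share 755 bases. Whether a probe lies in the shared stretch was not examined here. Ccl3 read 0.0812, 0.256 and 0.369 in control and 0.543, 0.418 and 0.597 after the block. The groups did not overlap and the anti-miR-335 arrays were the higher ones, but the probe was above background only on anti-miR-335 replicate 3, so no fold is given. With the probe below background on 5 of 6 arrays, its direction is not set against that of Ccl4.

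Cx3cr1, the receptor for the neuronal chemokine Cx3cl1, is encoded at chr9:120048683-120068296. It read 0.584, 0.806 and 0.783 in control and 0.897, 0.978 and 1.40 after the block. All 3 anti-miR-335 arrays were above all 3 control arrays, the opposite order to Trem2 and Ccl4. The means were 0.724 ± 0.122 and 1.09 ± 0.271 (SD, n = 3), and the difference was 0.58 with a standard error of 0.25. The values lay between 0.890 and 2.85 times the background limit of their arrays, and the gap between the groups was 0.15.

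Across the 9 members, 5 differences were below 0 and 4 above. The groups did not overlap for 2 lower members (Trem2 and Ccl4) and 2 higher ones (Ccl3 and Cx3cr1). Over all probes tested, groups did not overlap in 15.0%, with 7.37% lower and 7.59% higher. Among the 17843 probes above background on all 6 arrays, 8.46% were lower without overlap. The median over the members was -0.01, beside 0.01 over all probes. Since this contrast chose Trem2 and Ccl4, nothing is read from these counts.

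The list of other chemokines and receptors held 24 entries, of which 23 were measured. Only 4 were above background on all 6 arrays (Ccl22, Cx3cl1, Cxcr3 and Cxcr4), 11 on none, and 0 passed. The list's median difference was -0.10, with 10 genes above 0 and 13 below. At an unadjusted p under 0.05, 1 gene was higher and 0 lower, against 4.91% and 4.17% of all probes. That gene was Cxcl1, above background on 2 anti-miR-335 arrays and 0 control arrays, so no fold is given. Cx3cl1, the ligand of Cx3cr1, read 4.70 ± 0.312 in control and 4.21 ± 0.442 after the block (SD, n = 3), a difference of -0.16 ± 0.12 (log2, SE). Its second probe gave -0.19 ± 0.16. Cxcr3, a receptor of activated lymphocytes, had a difference of -0.17 ± 0.11. Its groups overlapped, as did those of the brighter Cx3cl1 probe. Ccl12, a monocyte chemokine, was above background on 2 arrays of each group.

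Aif1, at chr17:35170986-35176083, read 0.313, 0.358 and 0.124 in control and 0.730, 0.303 and 0.337 after the block. The groups overlapped, and the single spot above background, on anti-miR-335 replicate 1, was also its highest value. No fold is given.

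The chains of C1q are encoded side by side at chr4:136895916-136898844 (C1qa), chr4:136880126-136886200 (C1qb) and chr4:136889801-136892936 (C1qc). C1qa read 0.318, 0.213 and 0.0223 in control and 0.223, 0.322 and 0.130 after the block. C1qb read 0.147, 0.0247 and 0.513, then 0.361, 0.0048 and 0.225. C1qc read 0.0244, 0.430 and 0.365, then 0.216, 0.222 and 0.201. All 3 were below background on every array, and for each the groups overlapped. Together with Tyrobp these probes gave 24 spots between 0.0048 and 0.513.

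Csf1r, by the name the scanner output gives to one probe, read 0.257, 0.474 and 0.335 in control and 0.551, 0.264 and 0.297 after the block, below background on all 6 arrays. The scanner software's ratio of signal to noise gives the same picture for the dim members on the replicate 1 arrays. On control replicate 1 all 7 members other than Trem2 and Ccl4 had a ratio between 0.652 and 0.945. On anti-miR-335 replicate 1 their ratios lay between 0.688 and 1.15, with Aif1 at 1.08 and Cx3cr1 at 1.15 the only members above 1.

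The complement list, without the C1q chains, held 18 entries, of which 13 were measured. Of these 4 were above background on all 6 arrays, 7 on none, and 0 passed. The median difference was 0.10, with 8 genes above 0 and 5 below. At an unadjusted p under 0.05, 1 was lower and 0 higher, against 4.17% and 4.91% of all probes. C5ar1, the receptor for the anaphylatoxin C5a and a marker of myeloid cells, read 4.0, 4.20 and 4.25 in control and 3.37, 3.15 and 3.24 after the block. These groups did not overlap and differed by -0.35 ± 0.11 (log2, SE). Its 2 other probes were above background on no array and on 1 array, so they give no comparison. Cr1l, a complement regulator found on many cell types, read 8.77 in control and 10.6 after the block (0.29 ± 0.15).

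The list of Csf1r ligands and myeloid transcription factors held 16 entries, of which 15 were measured and 9 above background on all 6 arrays. Its median difference was -0.03, with 6 genes above 0 and 9 below, and 0 passed. At an unadjusted p under 0.05, 1 was lower and 0 higher, against 4.17% and 4.91% of all probes. Csf1, a ligand of Csf1r, read 3.11 ± 1.0 in control and 3.20 ± 1.28 after the block (SD, n = 3). The other ligand, Il34, was below background on every array. Sall1, a factor that microglia share with neural precursors, read 12.4 in control and 14.1 after the block (0.21 ± 0.16).

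Other microglia and macrophage markers numbered 32 entries, of which 29 were measured. Of these 7 were above background on all 6 arrays (Itgb2, Fcgr3, Cd14, Gpr34, Cd53, Lgmn and Coro1a), 13 on none, and 0 passed. Their median difference was -0.12, with 11 genes above 0 and 18 below. At an unadjusted p under 0.05, 2 were lower and 0 higher, against 4.17% and 4.91% of all probes. Their summed intensity ranged from 48.6 to 53.5 in control and from 47.1 to 55.2 after the block. The defining markers Ptprc (CD45) and Itgam (CD11b) were below background on all 6 arrays, and Cd68 was not analysed here. Fcgr3, an Fc receptor, read 1.28 ± 0.0942 in control and 1.04 ± 0.105 after the block (SD, n = 3), without overlap. Laptm5, a lysosomal protein of leukocytes, had a difference of 0.68 ± 0.31, which was 0.35 without control replicate 1, and passed the limit on 2 control arrays and on all 3 after the block. Gpr34, a microglial lipid receptor, read 2.10, 2.56 and 2.70 in control and 1.96, 2.05 and 2.39 after the block, and the groups overlapped. Gpr34 was chosen after its values were seen, as an example of a microglial marker above background.

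Genes known to rise in disease-associated microglia, in part through Trem2, made a list of 20 entries, of which 18 were measured and 14 were above background on all 6 arrays. Most of these, such as Apoe and the cathepsins, are also expressed by other cells. The list's median difference was 0.06, with 12 genes above 0 and 6 below, and 0 passed. At an unadjusted p under 0.05, 2 were lower and 1 higher, against 4.17% and 4.91% of all probes. Itgax, the integrin CD11c, read 2.46, 3.49 and 3.34 in control and 1.99, 2.02 and 2.10 after the block. Its groups did not overlap and differed by -0.59 ± 0.16 (log2, SE). Axl, a receptor for apoptotic cells also made by neural precursors, went the other way: 3.07 ± 0.391 in control and 4.42 ± 1.07 after the block (SD, n = 3), without overlap. This list too therefore held genes on both sides of 0.

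**Figure D3:**
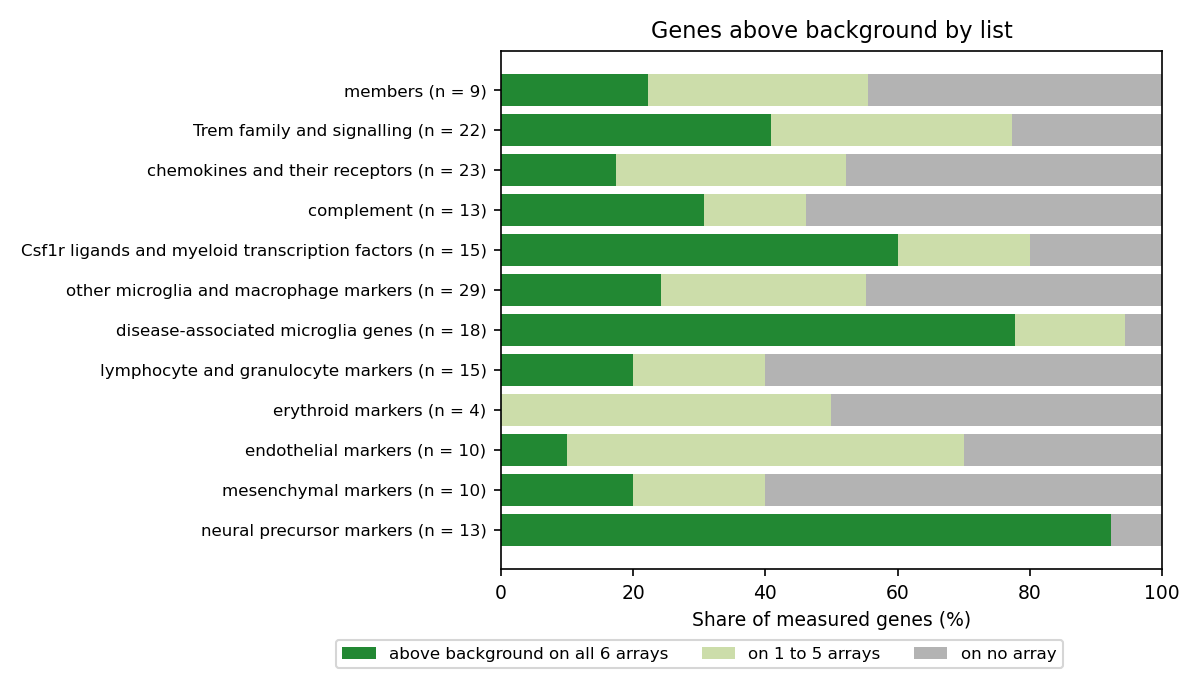
Share of the measured genes of each list that were above background on all 6 arrays, on 1 to 5 arrays and on none, in percent; n is the number of measured genes, each taken by its brightest probe. Of the neural precursor markers 12 of 13 were above background on every array, against 2 of 9 members.

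The tissue label was read against the markers of neural precursors: 12 of 13 measured genes, among them Nes, Sox2 and Pax6, were above background on all 6 arrays, and Hes1 on none. For comparison, 59.0% of 18069 genes were above on all 6 arrays by their brightest probe and 21.7% on none. Markers of lymphocytes and granulocytes, mesenchyme and erythroid cells were mostly dim, while 5 of 10 endothelial markers passed the limit on 3 or more arrays. Of 15 lymphocyte and granulocyte markers 9 were above background on no array, of 10 mesenchymal markers 6, of 10 endothelial markers 3 and of 4 erythroid markers 2. Their summed intensities in control and after the block were 13.4 to 13.9 and 12.8 to 14.6 for lymphocytes and granulocytes, 4.95 to 5.79 and 4.02 to 6.65 for endothelium, and 1.34 to 1.69 and 1.16 to 1.54 for erythroid cells, all overlapping. The mesenchymal sum was 8.54 to 9.31 in control and 6.66 to 8.55 after the block. The neural precursor sum was 341 to 388 in control and 386 to 416 after the block, and both pairs of ranges overlap only at their edges. Whether the makeup of the cultures has a part in the lower Trem2 and Ccl4 was not tested.

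**Figure D4:**
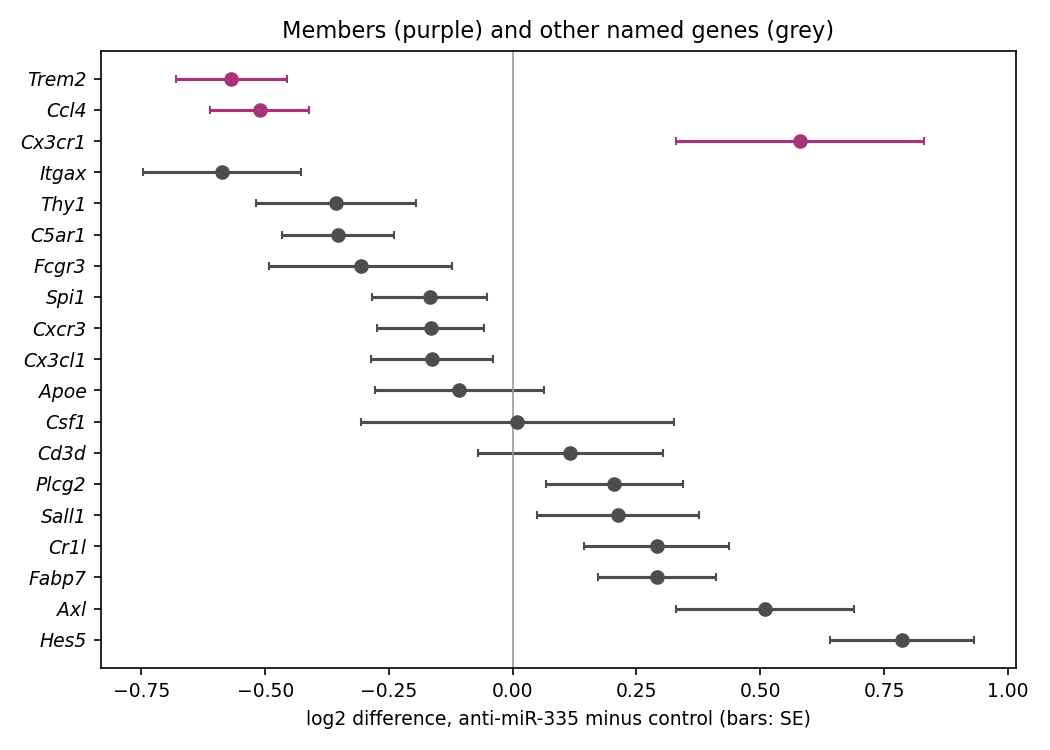
Log2 difference, anti-miR-335 minus control, with its standard error, for the members above background on at least 5 arrays (purple) and for all 16 other named genes above background on all 6 (grey). Trem2 at -0.57, Ccl4 at -0.51 and Itgax at -0.59 lie on one side of 0, with Cx3cr1 at 0.58, Axl at 0.51 and the Notch target Hes5 at 0.79 on the other.

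Across the 11 other lists, 193 entries held 190 different genes, of which 169 were measured. At an unadjusted p under 0.05 there were 8 lower and 5 higher, and 0 passed the adjusted threshold, beside 9.07% of all probes at the unadjusted one.

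Whether Trem2 and Ccl4 were called changed with control replicate 1. Without control replicate 1, 1100 of 34654 probes (3.17%) passed, and both genes were among them. With array weights, where limma gave control replicate 1 a weight of 0.366 and the others 0.781 to 2.25, 474 probes (1.36%) passed, again with both. Without both replicate 1 arrays the count was 1571 of 34397 (4.57%), with both. The other members were in none of these counts. Since Trem2 and Ccl4 were chosen by this contrast, their presence in the counts is a description and no test of them. Their differences moved little: over 17 alternatives Trem2 stayed between -0.63 and -0.52, Ccl4 between -0.57 and -0.46 and Cx3cr1 between 0.39 and 0.73. Leaving out arrays could not have reversed any of these, since the groups did not overlap for Trem2, Ccl4 or Cx3cr1.

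The probes most like Trem2 across the 6 arrays were found by the root mean square distance between log2 profiles, each centred on its own mean, over 12134 single-symbol probes above background on every array. The nearest was BC055402, at 0.0541, followed by 4930443O20Rik at 0.0587 and Ankle2, a nuclear envelope protein, at 0.0711. BC055402 read 1.75, 1.66 and 1.86 in control and 1.23, 1.23 and 1.17 after the block. Ccl4 came at rank 14, at 0.0912. The nearest to Ccl4 were Ppp1r14bl at 0.0593, Rybp, a Polycomb-associated protein, at 0.0609 and Tbc1d24 at 0.0643, with Trem2 at rank 26. Rybp read 5.33, 4.85 and 5.17 in control and 3.38, 3.93 and 3.50 after the block. None of these 6 neighbours was in the myeloid lists. All the lists together held only 169 measured genes, against 12134 probes compared, so nothing is read from this. Likeness over 6 arrays mostly follows the step between the groups.

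**Figure D5:**
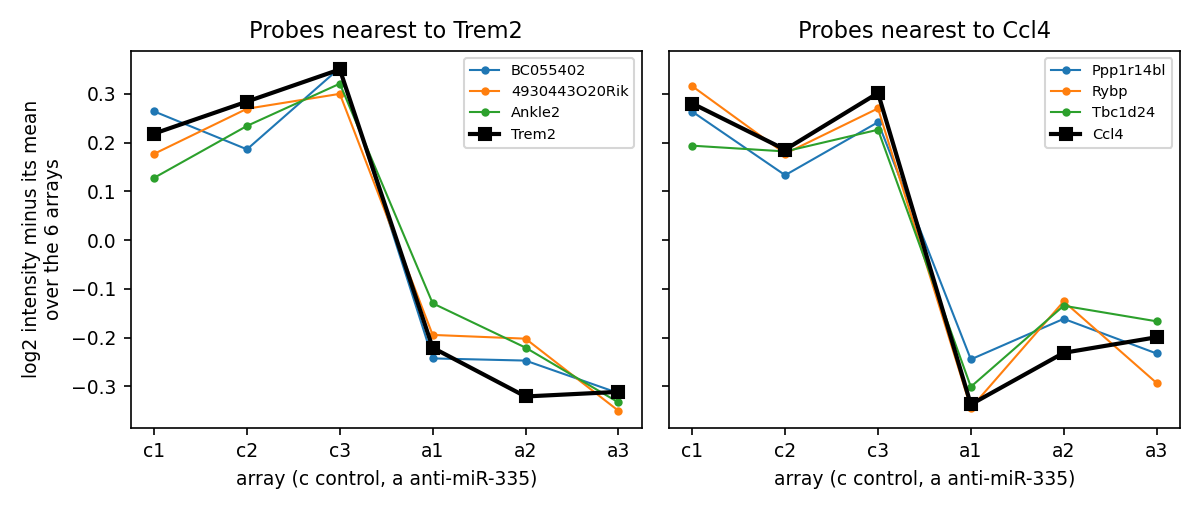
Log2 intensity on each array minus the probe's mean over the 6 arrays, for Trem2 (left, black) and Ccl4 (right, black) with the 3 nearest probes to each in colour; c1 to c3 are control arrays and a1 to a3 anti-miR-335 arrays. Each profile is high on the 3 control arrays and low on the 3 anti-miR-335 arrays, with a smaller spread within each group than between them.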

How the data were processed

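The authors deposited linear intensities, background-subtracted and divided by the array median, in a table of all 6 arrays (the median scaling per the labels; the subtraction was read from the scanner values). Per the file headers the software was CodeLink Expression Analysis 4.1.0.29054. Scanner output used here covers replicate 1 of each group; its deposited intensities equalled the table within 0.0001 for all 35976 and 36032 shared values, and its deposited signal-to-noise score was used as given. Per the labels, 2 µg of RNA was labelled and hybridised for 18 h.

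Of 36227 rows, 1260 were control spots. Of 34967 gene probes, 21615 had 1 symbol in the platform annotation, 681 several and 12671 none. The 21487 identifiers found in RefSeq's GRCm38.p6 table changed 0 symbols.

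Intensities under 0.163, the 5th percentile of positive values, were raised to it before log2. The 2 groups were fitted in R 4.3.3 with limma 3.58.1 (lmFit and trended eBayes) and tested two-sided. A gene with several probes was taken by its brightest. Where a group was below background on every array, a fold was given only if its bound exceeded 1. With 3 arrays per group, their number limits the precision. The scripts were tested on simulated data.

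Members and lists were chosen with earlier results of these data known. Named were every member, defining markers and partners of the members, the 3 nearest profiles to Trem2 and to Ccl4, and from each list the 2 genes of smallest p above background on at least 3 arrays. Alternatives were other scalings, floors, filters, limits, weights, a replicate block and leaving out arrays.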

Additional observations from a re-analysis of the deposited data

How the results depend on the processing

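The count of probes past the adjusted threshold, 0, became 1 with quantile normalization, 3 with scaling to the 75th percentile and 474 with array weights. Leaving out arrays gave 0 to 1571. It stayed 0 with both other floors, without the trend and with the filter on dim probes. With the replicate number as a block it was also 0. Deviations of same-numbered arrays correlated at -0.23, 0.04 and -0.26 over 17843 probes. With only 3 arrays per group, these correlations cannot decide whether the replicate numbers pair the samples. Whether same-numbered cultures had anything in common is therefore left unknown. Trem2, Ccl4 and Cx3cr1 kept their direction under all 17 alternatives. Their groups did not overlap, so leaving out arrays could not have reversed them. Members above background on every array numbered 3 with a limit at 2 deviations or at the 95th percentile of the negative controls, which adds Cx3cr1, and 2 at the 99th percentile. The members' median ran from -0.23 to 0.14 as arrays were left out. Among other named genes, Csf1, with a difference of 0.01, gave -0.020 with quantile normalization, -0.0027 with 75th percentile scaling and -0.28 with array weights, and -0.36 to 0.45 as arrays were left out. Ngp, a granulocyte gene at 0.41, gave -0.036 to 0.67 as arrays were left out. Itgax and Hes5 passed the threshold with array weights, without control replicate 1 and without both replicate 1 arrays. Over the alternatives several other differences kept their direction but moved by over 1.5 times: Laptm5 from 0.31 to 1.09, Cldn5 from -1.27 to -0.01, Axl from 0.33 to 0.68, Thy1 from -0.53 to -0.11, Cr1l from 0.10 to 0.50, Sall1 from 0.02 to 0.39, Plcg2 from 0.06 to 0.34, Spi1 from -0.23 to -0.08 and Cx3cl1 from -0.29 to -0.04. The cause was not tested.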

Other observations

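Several genes outside the myeloid lists were read well above background. Hes5, a Notch target of radial glia, read 2.60 in control and 4.44 after the block (0.79 ± 0.15, log2, SE), and Fabp7, a fatty acid carrier of radial glia, 90.1 ± 8.62 and 110.0 ± 2.59 (SD, n = 3). Neither passed the adjusted threshold with all 6 arrays weighted equally, and Hes5 passed with array weights. Thy1, a mesenchymal and neuronal surface protein, read 5.06 in control and 4.0 after the block (-0.36 ± 0.16). Of the endothelial genes, Tek was above background on 3 anti-miR-335 arrays and no control array, and was named through a filter it met only by those 3. Cldn5 had a difference of -0.62 ± 0.40, which was -0.21 without control replicate 3. Pdgfrb, a pericyte receptor, passed the limit on 1 control array and on 2 arrays after the block. Cd3d, a T cell gene, read 1.13 in control and 1.22 after the block.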
